A study of Homo sapiens with 12 samples.

Results

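FOXA1 occupancy was examined around 5 genes: the Polycomb genes EZH2, EED and SUZ12, and BUB3 and USP7, the pair named with them in the series title. By that title the study asked how the Polycomb and BUB3/USP7 complexes control FOXA1 protein stability. The peak lists show where FOXA1 sat in windows around 5 genes that encode parts of them. Peaks of all 12 libraries were taken when their centre lay in 1 of 5 fixed windows (hg19), chr7:148450000-148640000 for EZH2, chr11:85900000-86050000 for EED, chr17:30210000-30380000 for SUZ12, chr10:124860000-124980000 for BUB3 and chr16:8930000-9110000 for USP7. The windows held 280 of 760537 peaks. Merging peaks that shared at least 1 base gave 63 regions of 178794 in all, 15 at EZH2, 13 at EED, 9 at SUZ12, 11 at BUB3 and 15 at USP7. The windows were chosen by position and not by signal, and they also take in ground beside each gene. A region is named here by its window and its number along the chromosome, which assigns it to no gene.

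All libraries were chromatin immunoprecipitation with sequencing (ChIP-seq) of LNCaP, an androgen-sensitive human prostate cancer cell line. Of the 12, 4 used an antibody against the HA tag, 5 days after infection, with 1 library per condition: a pGIPZ control, shFoxA1 (a short hairpin against FOXA1), shFoxA1 with HA-tagged wild-type (WT) FOXA1, and shFoxA1 with HA-tagged FOXA1 carrying K295A. The remaining 8 used an antibody against FOXA1 after 7 days of treatment, 2 libraries per group, with DMSO (the solvent), 1 µM EPZ-6438 (an EZH2 inhibitor), 3 µM P5091 (a USP7 inhibitor) or both drugs at these doses (combination). The tagged proteins were introduced by infection and so report the added protein, whereas the FOXA1 antibody cells kept their own FOXA1.

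EZH2 is the methyltransferase of Polycomb repressive complex 2, which places methyl groups on lysine 27 of histone H3. EED binds that mark and stimulates the enzyme, and SUZ12 is the scaffold that holds the complex together. BUB3 is a WD-repeat protein of the spindle assembly checkpoint, USP7 is a deubiquitinase that removes ubiquitin from many nuclear proteins, and FOXA1 is a forkhead pioneer factor that opens chromatin for the androgen receptor in luminal prostate cells.

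The sequence under the regions was not analysed here, because the peaks are on hg19 and the sequences at hand are RefSeq promoters of GRCh38.p14. Those promoters were searched on both strands in the 250 bases before the gene start. The forkhead motif GTAAACA (or TGTTTAC) and its variant GCAAACA (or TGTTTGC) were in none of the 4 promoters found, EZH2, EED, SUZ12 and USP7, and in 3.0% and 3.2% of all 35116 promoters. The shorter core AAACA (or TGTTT), which overlaps both, was in 40.4% of all promoters and in 1 of the 4, that of EED, where it began 171 bases before the start. The EED promoter is shown with that core in capitals, on the + strand of chr11:86244503-86244752, beside the EZH2 promoter, which lacks it, on the - strand of chr7:148884292-148884541.
EED promoter: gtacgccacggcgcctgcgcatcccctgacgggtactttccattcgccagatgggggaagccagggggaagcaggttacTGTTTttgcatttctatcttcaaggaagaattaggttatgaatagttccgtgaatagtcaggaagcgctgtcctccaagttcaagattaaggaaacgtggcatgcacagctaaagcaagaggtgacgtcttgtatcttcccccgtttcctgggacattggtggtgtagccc
EZH2 promoter: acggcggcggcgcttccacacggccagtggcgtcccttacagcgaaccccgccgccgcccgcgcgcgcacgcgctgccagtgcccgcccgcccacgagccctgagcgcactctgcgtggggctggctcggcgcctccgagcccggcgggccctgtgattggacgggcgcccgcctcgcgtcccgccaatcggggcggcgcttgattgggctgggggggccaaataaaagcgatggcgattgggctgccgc
GC made up 51.2% of the bases at EED, 75.6% at EZH2, 72.8% at SUZ12 and 84.4% at USP7, against a median of 58.0% over all promoters. A match or its absence says only what letters stand in this window. The distance of the ChIP-seq regions to these starts was not analysed here, since the builds differ.

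FOXA1 was called in every window, with regions spread along each rather than at 1 place. Signal is given as the deposited normalized tag count, the tags of a peak per 1e7 tags of the library; where no peak was called, no value exists. Neither untagged HA library (pGIPZ or shFoxA1, 982 and 971 peaks genome-wide) had a peak in any window. Of the 63 regions, 56 were called by at least 1 FOXA1-antibody library and 7 with tagged FOXA1 only (11.1%). Genome-wide, 21.2% of all regions had no FOXA1-antibody call, a share that also counts any called in an untagged library alone. The 63 regions stood at 7.78 per 100 kb of window, beside 8.94 over the genome size used by the peak caller. That size, 2000000000 bases, is a setting of the caller and not the length of hg19. The comparison therefore does not show whether the windows were sparser or denser than the genome. Per window the density was 9.17 at BUB3, 8.67 at EED, 8.33 at USP7, 7.89 at EZH2 and 5.29 at SUZ12.

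The first combination library stood apart genome-wide, with 30811 peaks against 68504 to 84423 in the other FOXA1 libraries and 5.26% of its tags in peaks against 18.86% to 21.2%. It had 8 peaks in the 5 windows, beside 28 and 29 in the DMSO libraries, 29 and 34 after EPZ-6438, 29 and 31 after P5091 and 31 in the second combination library. Its peaks were 3 at EZH2, 2 at EED, 0 at SUZ12, 1 at BUB3 and 2 at USP7. Total tags were 12299238 to 22589685 in the FOXA1 libraries and 11640056 to 13694090 in the HA libraries, and this library, at 15999804, lay within that range. The tests of the drugs and the counts of regions whose groups do not overlap are also given without it.

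**Figure D1:**
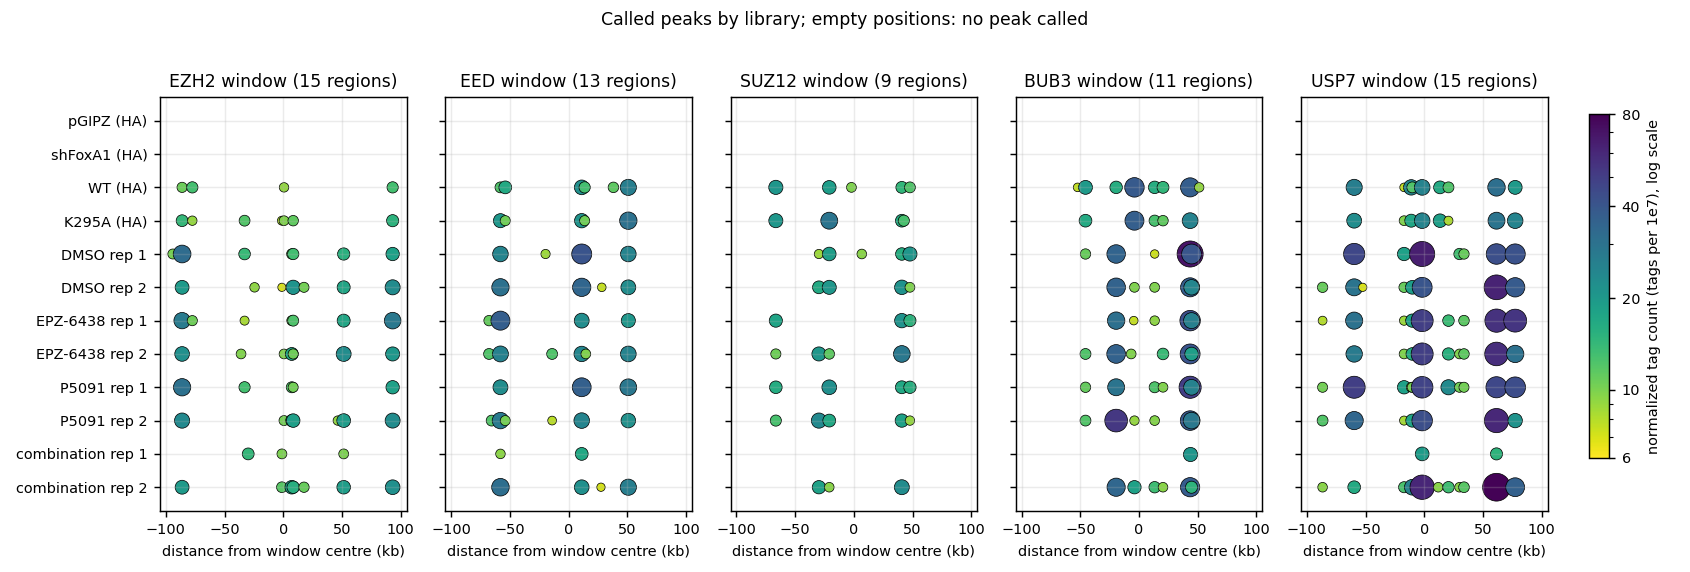
Peaks called in each of the 12 libraries (rows) across the 5 windows; the horizontal axis is distance from the window's centre in kb, and the size and colour of a point give the normalized tag count. The pGIPZ and shFoxA1 rows are empty, the first combination row holds 8 peaks, and the strongest points lie at USP7 and BUB3.

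Regions seen in every FOXA1 library were few. All 8 libraries called 5 of the 63 regions (7.94%, beside 13.6% of all regions): 2 at EED, 2 at USP7 and 1 at BUB3, with none at EZH2 or SUZ12. Without the first combination library, the 7 others called 16 (25.4%, beside 21.1%), namely 5 at USP7, 4 at EZH2, 3 at EED, 3 at BUB3 and 1 at SUZ12. At the other end, 22 regions were called in a single library of the 12 (34.9%, beside 28.4%), and a region called in 1 FOXA1 library only had a value there of 6.97 to 14.4. The regions were 275 to 777 bases wide, with a median of 394.

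The catalytic subunit's window, EZH2, had moderate regions. The strongest among those called in the most libraries was EZH2 region 2 (chr7:148458604-148459023), with 32.2 and 19.7 for DMSO, 27.4 and 22.0 for EPZ-6438, 30.7 and 23.6 for P5091, and 19.7 in the second combination library, with no peak in the first. These groups overlapped throughout. Its mean stood at percentile 79.5 of all regions called in 7 FOXA1 libraries. EZH2 region 15 (chr7:148637738-148638514) was close to it, at 18.3 to 28.3 with a median of 22.1, and the ranges of both overlapped. EZH2 regions 10 and 11 (chr7:148552035-148552445 and chr7:148553160-148553600) were weaker, at 8.13 to 18.9 and 10.4 to 20.9, percentiles 6.7 and 15.2. EZH2 region 14 (chr7:148596240-148596633) was called in the first combination library, at 10.0, and in 6 others at 15.4 to 22.8, but not in the first P5091 library. One region, EZH2 region 6 (chr7:148514957-148515235), was called in the first combination library alone, at 14.4.

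At EED, the histone mark reader, 2 regions were called in all 8 libraries. EED region 7 (chr11:85985957-85986392) read 41.0 and 34.3 in the DMSO libraries, 22.6 and 24.4 after EPZ-6438, 36.5 and 24.8 after P5091, and 16.9 and 22.1 after both drugs. Every library with EPZ-6438 was below every library without it. The same held at 6.52% of the 72593 regions called in at least 4 FOXA1 libraries. The nearest values, 24.4 and 24.8, lay less than 1 tag apart. In the second EPZ-6438 library 1 tag was 0.813, and in the second P5091 library 0.605. The first combination library read low throughout, and its 16.9 here lay above its median of 15 over the regions called in all 8. EED region 3 (chr11:85916817-85917275) read 24.9 and 30.8 in the DMSO libraries, 37.2 and 26 after EPZ-6438, 22.8 and 27.8 after P5091, and 9.38 and 31.6 after both drugs, and here the groups overlapped. The medians of the pair over the 8 libraries, 24.6 and 26.9, lay within each other's spread. Their means stood at percentiles 35.5 and 29.8 of the regions called in all 8. EED region 13 (chr11:86025694-86026121) was steady over the 7 libraries that called it, at 20.4 to 28.7 with a median of 24.9.

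The scaffold gene's window, SUZ12, had the fewest regions. Its strongest, SUZ12 region 7 (chr17:30335632-30336140), read 16.1 and 21.5 in the DMSO libraries, 21.2 and 28.5 after EPZ-6438, 17.0 and 18.2 after P5091 and 22.9 in the second combination library. The EPZ-6438 and DMSO values overlapped, and the percentile was 61.5 among regions called in 7. SUZ12 region 3 (chr17:30273889-30274364) read 19.0 and 20.3 with DMSO and 22.2 and 16.9 with P5091, but 11.4 in the second EPZ-6438 library and 9.47 in the second combination library, with no peak in the first of either. SUZ12 region 2 (chr17:30265097-30265586) was called in every second replicate, at 16.8 to 23.6, and in the first replicate of DMSO alone, at 8.78. The replicates differed here more than the treatments did.

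The window of BUB3, the checkpoint gene, had 1 region in all 8 libraries. BUB3 region 9 (chr10:124963276-124963682) read 69.5 and 37.2 in the DMSO libraries, 42.9 and 40.7 after EPZ-6438, 50.2 and 39.3 after P5091, and 20.6 and 37.9 after both drugs. The first DMSO library was highest and the first combination library lowest, and the other 6 lay between 37.2 and 50.2. BUB3 region 3 (chr10:124900223-124900692) was similar in height, with 35.1 and 35.4 for DMSO, 31.0 and 35.8 for EPZ-6438, 29.4 and 52.7 for P5091 and 33.9 in the second combination library. It stood at percentile 96 of the regions called in 7 FOXA1 libraries, a class without the regions called in all 8. At those, the library medians outside the first combination library were 35 to 40.2. BUB3 region 9 stood at percentile 64.5 of the regions called in all 8. BUB3 region 10 (chr10:124964520-124964948) had 15.0 to 40.2 with a median of 25.4.

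The window of USP7, the deubiquitinase gene, held the highest values of the 5 windows. USP7 region 14 (chr16:9081263-9081653) read 43.1 and 62.7 in the DMSO libraries, 55.3 and 56.9 after EPZ-6438, 45.7 and 59.9 after P5091, and 15.0 and 78.9 after both drugs. The combination libraries were the lowest and the highest of the 8, a mean of 46.95 ± 45.18 (SD, n = 2). USP7 region 8 (chr16:9018009-9018383) read 64.4 and 40.6 in the DMSO libraries, 49.6 in both EPZ-6438 libraries, 47.6 and 43.0 after P5091, and 19.4 and 60.8 after both drugs. USP7 region 15 (chr16:9097212-9097655) and USP7 region 3 (chr16:8960094-8960500) were called in the 7 other libraries, at 21.2 to 53.6 and 16.6 to 49.6. In order of median the 4 were region 14 (56.1), region 8 (48.6), region 15 (38.3) and region 3 (30.1), and each overlapped its neighbour. Regions 15 and 3 stood at percentiles 96.5 and 93.2 of the regions called in 7 libraries, and regions 14 and 8 at 74.5 and 70.6 of those called in 8. These classes differ in signal, so the percentiles do not rank regions 15 and 3 above regions 14 and 8. The region with the highest mean log2 value of each window, taken among those called in the most libraries, came in the order of median USP7 region 14, BUB3 region 9 (40), EED region 7 (24.6), EZH2 region 2 (23.6) and SUZ12 region 7 (21.2), and each overlapped its neighbour in range.

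Over the 8 FOXA1 libraries, USP7 region 14 was most alike in pattern to chrX:131589435-131589917, chr1:249217590-249218008 and chr14:27280814-27281272 among 24260 other regions, with Pearson's r of 0.962, 0.958 and 0.954 on log2 values centred within each library. These points share libraries and depth, the first combination library included, and they are a description.

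**Figure D2:**
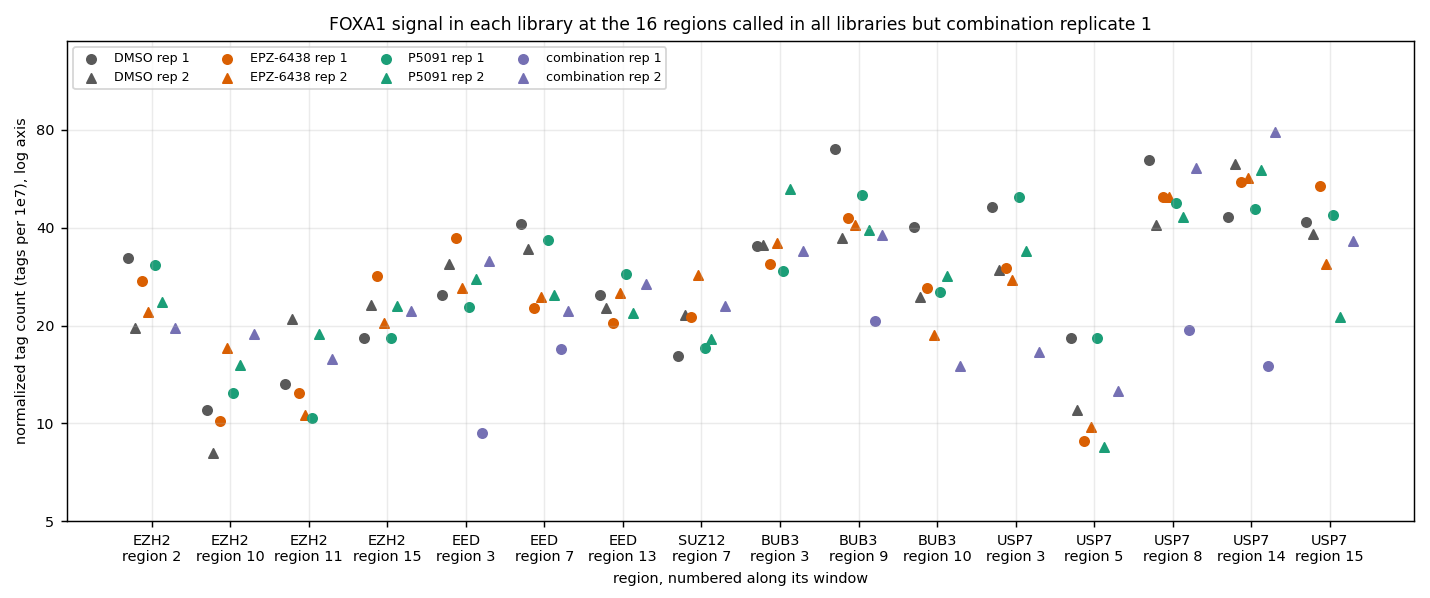
Normalized tag count (log axis) of each FOXA1 library at the 16 regions called in all libraries other than the first combination library; circles are replicate 1 and triangles replicate 2, coloured by treatment. The first combination library is the lowest point at all 5 regions where it has one, and at USP7 region 14 the second is the highest.

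Whether either drug moved FOXA1 in these windows was tested at the 5 regions called in all 8 libraries. The test was a limma fit of log2(tag count + 1) at all 24261 such regions with Benjamini-Hochberg adjustment. None of the 5 passed an adjusted p of 0.05 for EPZ-6438 against DMSO, P5091 against DMSO, the combination against DMSO, all EPZ-6438 libraries against all without, or all P5091 libraries against all without, and 0% of all regions passed in each. The smallest adjusted p among the 5 was 1, 1, 0.383, 0.565 and 0.84 in that order. At an unadjusted p under 0.05, 0 of the 5 passed in each comparison, with 233, 12, 3418, 2156 and 203 of the 24261; edgeR on tags recovered from the signal also called none, with 255, 13, 2439, 1870 and 186 unadjusted. The comparisons with DMSO share its 2 libraries. In the limma fit the low first combination library adds to the spread shared by the 4 groups. For EPZ-6438 against DMSO the standard error of the 5 regions was 0.581 to 0.601, and 0.306 to 0.365 after centring each library. The 0 calls therefore do not show an absence of change. With a replicate block and centring, 167, 0, 1025, 1834 and 0 of the 24261 regions passed in that order, and 0 of the 5.

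For the 4 libraries with EPZ-6438 against the 4 without, all 5 regions were lower as deposited, with a median log2 difference of -0.235, beside -0.38 over all regions. After centring each library on its own median, 3 of the 5 were higher and 2 lower. Without the first combination library, and as deposited, 8 of the 16 regions tested were lower and 8 higher. EED region 7 was lower by both, at -0.63 ± 0.42 (SE; limma adjusted p = 0.565) as deposited and -0.27 ± 0.26 (limma adjusted p = 0.68) centred. Its mean was 37.65 ± 4.74 in DMSO, 23.5 ± 1.27 after EPZ-6438, 30.65 ± 8.27 after P5091 and 19.5 ± 3.68 after both drugs (SD, n = 2 each). Within a replicate number, EPZ-6438 over DMSO was 0.551 and 0.711, and the combination over P5091 was 0.891 in the second replicates. The first replicates gave 0.463, but there the combination library was low throughout, with a median of 15 against 38.5 over all tested regions and ratios of 0.328 to 0.411 at the other 4 regions here.

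Without the first combination library, 37763 regions and 16 in the windows could be tested, and a limma fit with both a replicate block and centring (chosen after seeing the data) called 3.97% of all regions for EPZ-6438 in all libraries. The other calls of that fit were 1.64% for EPZ-6438 against DMSO, 0.564% for the combination against DMSO and 0% for both P5091 comparisons. It called 0 of the 16 in each of the 5 comparisons. The nearest was USP7 region 3, with a log2 difference of -0.64 ± 0.24 (SE) and a limma adjusted p of 0.104 for EPZ-6438 in all libraries. Its values were 46.1 and 29.6 in the DMSO libraries, 30.1 and 27.6 after EPZ-6438, 49.6 and 33.9 after P5091 and 16.6 in the second combination library. EPZ-6438 over DMSO was 0.653 and 0.932 within a replicate number and the combination over P5091 was 0.49, but the groups overlapped by the first EPZ-6438 library. EED region 7 had -0.43 ± 0.25 in that fit (limma adjusted p = 0.347).

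Among regions called in at least 4 FOXA1 libraries, with no call counted as below any value, 2 of 28 lay lower in every library with EPZ-6438 than in every library without, EED region 7 and SUZ12 region 3 (7.14%, beside 6.52% of 72593 regions). None lay higher, beside 0.304%. Without the first combination library the same 2 lay lower (beside 6.54%), and 1 lay higher, USP7 region 13 (chr16:9053588-9054051), beside 5.38%. USP7 region 13 was weak: 11.5 and 11.4 with EPZ-6438 and 11.8 in the second combination library, against 11 in the first DMSO library, 10.4 in the first P5091 library and no peak in the second of either. For P5091, 0 of 28 lay lower and 0 higher, beside 1.37% and 0.0427%, and also 0 and 0 without that library, beside 1.39% and 1.34%. The shares for EPZ-6438 were near the background. SUZ12 region 3 had a log2 difference of -0.88 ± 0.37 (SE; limma adjusted p = 0.197) for the EPZ-6438 libraries that called it against those without the drug. This came from the blocked and centred fit of regions called in at least 4 libraries, added after seeing the data, which called 1200 of 57042 regions. The planned fit of these regions, without block or centring, gave -0.85 ± 0.37 (SE; limma adjusted p = 0.528) and called 6 of 57042. With the drug, only the second EPZ-6438 and second combination libraries gave a value, and libraries without a call did not enter either estimate.

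**Figure D3:**
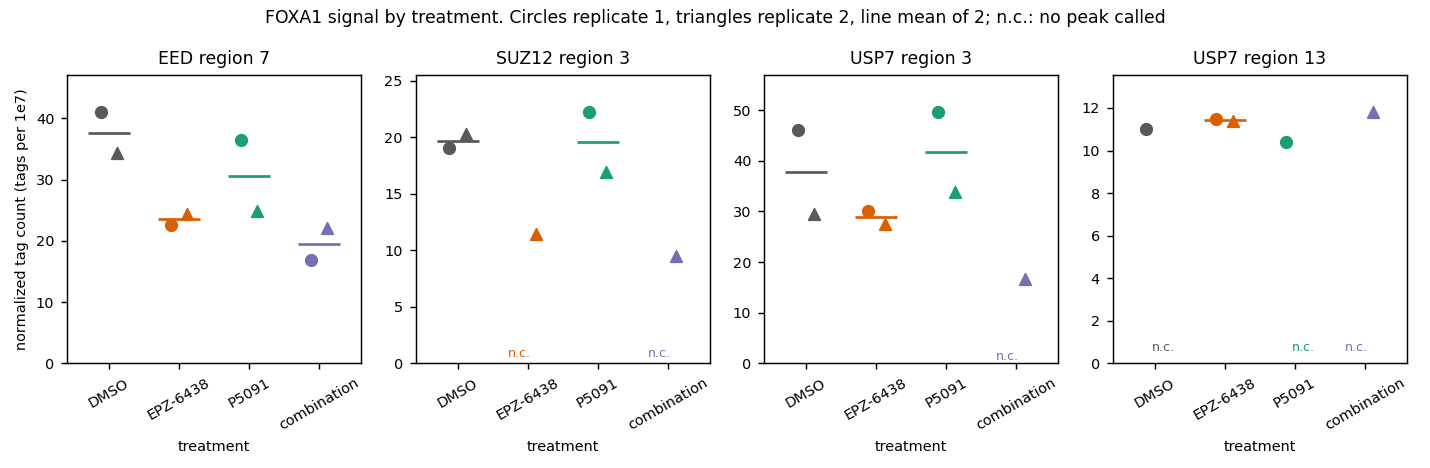
Normalized tag count by treatment at EED region 7, SUZ12 region 3, USP7 region 3 and USP7 region 13; circles are replicate 1, triangles replicate 2, lines the mean of 2, and n.c. marks a library with no peak called. At EED region 7 the EPZ-6438 and combination points (16.9 to 24.4) lie below the DMSO and P5091 points (24.8 to 41.0). The nearest points are less than 1 tag apart.

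Regions called in both libraries of 1 group and in neither of another were counted over the 56 regions with a FOXA1 call. A missing call means only that no peak passed the caller's cutoffs. Both libraries of a treatment were filtered against the same input, which differed between treatments. Input and treatment therefore cannot be told apart in these counts. Both EPZ-6438 libraries and neither DMSO library called 3 (5.36%, beside 4.14% of 140823): EED region 1 (chr11:85907051-85907572, 11.1 and 12.2), USP7 region 11 (chr16:9040411-9040837, 13.7 and 15.4) and SUZ12 region 1 (chr17:30228247-30228860, 17.7 and 10.6). The reverse was 0, beside 3.03%. SUZ12 region 1 was also called in both P5091 libraries, at 16.3 and 12.7, as the 1 such region for P5091 (beside 2.03%), and again the reverse was 0, beside 2.25%. USP7 region 11 was called in 1 P5091 and 1 combination library too, at 23.5 and 13.4. For the combination, 0 were called in both of its libraries and neither of DMSO, beside 0.599%, and 1 in the reverse, beside 5.68%. That 1 was SUZ12 region 9 (chr17:30342543-30342990, 20.5 and 9.87 with DMSO). The combination counts include the first combination library, which called nothing at SUZ12, and have no value without it.

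Tagged FOXA1 occupied much of the same ground. WT was called at 32 of the 63 regions and K295A at 29, with 25 shared (39.7%, beside 38.1% of all regions), 7 in WT alone (11.1%, beside 16.2%) and 4 in K295A alone (6.35%, beside 7.53%). With 1 library per condition no test was possible, and the intervals given cover counting error only. Of the 25 shared regions, 0 differed by 2-fold or more, beside 3.23% of 67719 shared regions. K295A was higher at 10 of the 25 and lower at 15, beside 41.1% higher over all shared regions, with a median K295A over WT ratio of 0.95, beside 0.94 over all. No 95% exact conditional binomial interval excluded 1.

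The ratios ran from 0.63 (0.30 to 1.28) at EED region 4 (chr11:85920986-85921306, WT 16.8 and K295A 10.5) to 1.67 (0.87 to 3.31) at EED region 3 (WT 12.2 and K295A 20.3). SUZ12 region 3 was at 1.54 (0.91 to 2.65), from 19.1 with WT and 29.4 with K295A. BUB3 region 9 was at 0.68 (0.43 to 1.08), from 37.4 and 25.6. EED region 7 (22.1 and 21.1), USP7 region 8 (25.2 and 24.9) and USP7 region 14 (31.3 and 29.4) were within a few tags of each other. Regions called with 1 protein read 7.63 to 16 for WT and 8.29 to 12.8 for K295A, beside medians of 16.8 and 17.3 at the shared regions. Some shared regions were as low, such as USP7 region 5 (chr16:9002569-9003048) with 7.63 for WT. All 4 K295A-only regions lay at EZH2 or SUZ12 (3 and 1). The WT-only regions were 3 at BUB3, 2 at SUZ12, 1 at EED and 1 at USP7.

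The HA and FOXA1 antibodies ranked some regions differently. BUB3 region 6 (chr10:124915817-124916324) had the highest tagged values of all 63, 38.9 with WT and 36.9 with K295A, but was called in only 3 FOXA1 libraries, at 9.87, 9.08 and 18.2. USP7 region 6 (chr16:9008706-9009152) had 24.4 and 17.3 with the tagged proteins and 11.1 and 9.78 in the 2 FOXA1 libraries that called it. USP7 region 10 (chr16:9033262-9033571, 16.8 and 18.8) and EED region 8 (chr11:85988569-85988906, 13 and 10.5) were called with both tagged proteins and in none of the 8 FOXA1 libraries. In the other direction, BUB3 region 10, at a FOXA1 median of 25.4, had no peak with either tagged protein, and BUB3 region 3, at 35.1, had 16 with WT and none with K295A. The lowest 5% of K295A peaks genome-wide read under 9.04. Of the 16 regions called in the 7 FOXA1 libraries, 12 were called with both tagged proteins (75.0%, beside 78.4%) and 2 with neither (12.5%, beside 9.76%), the second of the 2 being EZH2 region 10. The antibody, the days in culture, the use of an input and the infection differ between these experiments and cannot be told apart.

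**Figure D4:**
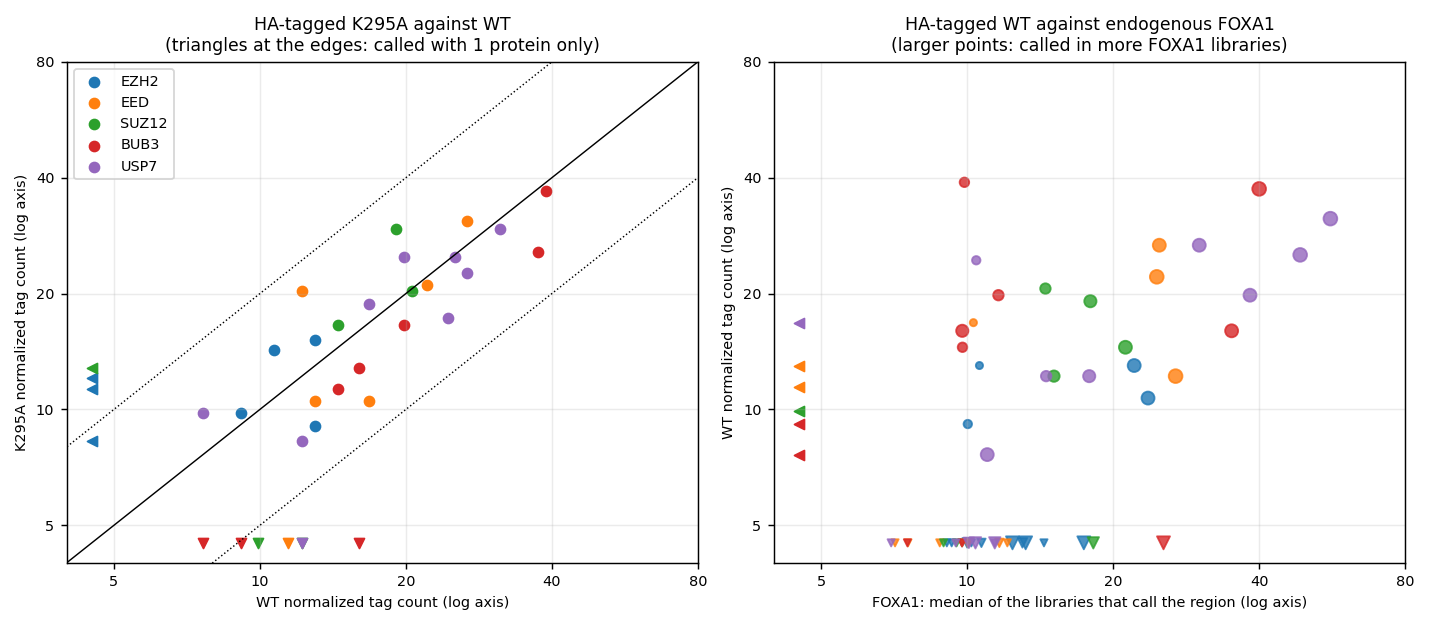
Left, normalized tag count with HA-tagged K295A against WT at the regions of the 5 windows (log axes), with lines at equality and at 2-fold; triangles at the edges are regions called with 1 protein. Right, WT against the FOXA1-antibody median of the libraries that call the region, with larger points for more libraries; the 25 shared regions at left lie within the 2-fold lines, and BUB3 region 6 stands alone at upper left on the right.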

How the data were processed

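The 5 windows, the lists and the tests were chosen with earlier results of these data known. Bowtie2 and HOMER 4.2 with hg19 were used, per the submitters' processing notes. Each library had its own run of findPeaks in factor mode (false discovery rate 0.001, at least 4-fold over the local 10 kb, Poisson p 0.0001), per the file headers. An input, 1 for both replicates of a treatment, filtered the FOXA1 peaks further, and HA peaks were called without one, per the file headers.

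The deposited normalized tag count is a signal value per 1e7 tags. The deposited total tags of a peak, given for 3 of the libraries, are a count. Signal times library size gave whole numbers at 100% of peaks, allowing for printed digits, equal to the deposited count for 97.3% of peaks in the first DMSO library and 100% in the second EPZ-6438 and combination libraries. The deposited findPeaks score served only for a stricter threshold, and the deposited fold over local or input tags is the caller's ratio and was not tested.

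A library's value in a region was its highest peak. The main test was limma 3.58.1 (R 4.3.3, trend, pseudocount 1, 4 groups, no block) over regions called in all 8 FOXA1 libraries, adjusted at 0.05. Differences on that scale understate changes of weak regions. edgeR 4.0.16 used recovered tags. Merging and fits were tested on simulated data. The simulated libraries for the fits shared the same signal level, with none as low as the first combination library. They do not show what the main fit could detect here. The labels do not say whether replicates were separate cultures, and the p-values then reflect no more than the differences among these libraries, which may be technical. Replicate numbers come from the titles, and the deviations of same-numbered libraries correlated at 0.148 to 0.488 in all 6 pairs of groups. The numbers were therefore taken to pair the libraries in the fits with a replicate block, while the main fit had no block.

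Regions were named by rule when they were the strongest of a window or called in all 8 libraries. By the same rule, those in an untagged library or 2-fold apart between WT and K295A would be named, and there were none. The likeness search was part of the rule. All other named regions were chosen after their values were seen. One characteristics field spells DMSO as DMO; the title and description give DMSO. A motif search in the peaks, distances to gene starts and partner genes of the complexes had been planned and were not analysed here, as no hg19 genome or annotation was used.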

Additional observations from a re-analysis of the deposited data

Results flagged for a closer look

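In groups of 4 libraries sharing or lacking a drug, 44 sets of peak numbers or of normalized tag counts were searched. In 8 of the 44 a library lay far from the other 3. For independent sets of continuous values, chance gives about 1 in 20 at this cutoff. Peak numbers are small whole numbers that often tie, and the sets share libraries. That rate therefore does not apply here, and the 8 cannot be read as an excess over chance. All 8 were sets of peak numbers, and the tag counts of the regions called in all 8 libraries gave none. With EPZ-6438, the first combination library had 3 peaks at EZH2 against 7 in each other library, and 2 at USP7 against 10 to 11. With P5091, the first combination library had 1 peak at BUB3 against 6 in each other, and 8 over all 5 windows against 29 to 31. Without P5091, the second EPZ-6438 library had 6 peaks at EED against 4, 6 at BUB3 against 5, and 34 over all windows against 28 to 29. Also without P5091, the second DMSO library had 8 peaks at EZH2 against 7. Where the other 3 libraries tie, a difference of 1 peak is enough to stand out.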

How the results depend on the processing

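Of the values recomputed under alternatives, 190 stayed on the same side of the threshold or within 1.5 times, 7 counts moved and 4 became stronger. With 0 called in the main fit, a count of called regions could not become weaker. The sign was compared only for EED region 7 and did not reverse. Over the 5 tested regions the median log2 difference did change sign with centring. It went from -0.235 to 0.13 for all EPZ-6438 libraries and from -0.642 to 0.035 for the combination against DMSO. With the replicate number as a block, 0 of the 5 tested regions were called in each of the 5 comparisons, as without it. Leaving out 1 library at a time gave 0 called for EPZ-6438 and for P5091 against DMSO, 0 to 5 for the combination, 0 to 2 for all EPZ-6438 libraries and 0 to 3 for all P5091 libraries. The upper values came without the second combination library, when the first stands alone and is assumed to vary like the other groups. That fit called 16162, 11528 and 7317 of 24502 regions genome-wide in those 3 comparisons. EED region 7 then read -0.725 for EPZ-6438 in all libraries (limma adjusted p = 0.0455, and 0.33 to 0.932 under the other alternatives). With block and centring of all 8 libraries, limma called 167, 0, 1025, 1834 and 0 regions genome-wide in the 5 comparisons, in the order of the report, and 0 of the 5 here. Counts of regions fell to 4 at EZH2, 3 at EED, 5 at SUZ12, 6 at BUB3, 8 at USP7 and 26 in all with a stricter score (20 for FOXA1, 17 for HA), and regions shared by WT and K295A to 13. Added after seeing the data were centring without the first combination library, the same with the block, block with centring at regions called in at least 4 libraries, and the overlap counts without that library. Each group holds 2 libraries and each HA condition 1, and weak peaks rest on about 10 tags.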
